A study of Mus musculus with 8 samples.

Results

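The ATP-binding cassette (ABC) transporters were read as every probe set that the platform annotation assigned to 1 gene alone, with a symbol made of Abc, a subfamily letter from a to g and a number. This took 92 of 34958 probe sets naming 1 gene and 45 of 18194 genes. Total RNA of the normal cochlea of 8 CBA/CaJ mice, an inbred strain much used in hearing research, had been measured on Affymetrix oligonucleotide arrays, 1 array a mouse with that animal's ears pooled. Every mouse had received urethane at 300 mg/kg and had been perfused with saline, and the soft tissue taken was spiral ligament, organ of Corti and modiolus together. There was 1 group and no contrast, and sex and age were not used here because the labels do not give them. Each value is a MAS5 signal in arbitrary units over the 8 mice, whose numbers are only names. Signals of different probe sets do not measure relative amounts of RNA, and no order of genes by level is given. With 8 arrays the precision of every mean is limited.

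ABC proteins bind and hydrolyse ATP on paired nucleotide-binding domains, and most of them use it to move lipids, drugs, conjugates, peptides or metal complexes across a membrane. Some members are no transporters: the sulfonylurea receptors regulate potassium channels, and the E and F subfamilies lack membrane-spanning domains and act at the ribosome. In the inner ear, P-glycoprotein is known from the capillaries that form the blood-labyrinth barrier, where it limits the entry of drugs.

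A gene was called detected when the probe set with its highest mean signal exceeded, on all 8 arrays, the 95th percentile of 136 probe sets for olfactory receptors and organs unrelated to the ear, a threshold of 43.3 to 90.4 depending on the array. By this call 26 of the 45 ABC transporter genes were detected (57.8%), against 62.1% of all measured genes. Signal passed the threshold on 1 to 7 arrays in 7 more genes and on no array in 12 (26.7%), against 24.8% of all genes. The share for the ABC genes was thus close to that of the whole array. Solute carriers were detected for 232 of 362 genes (64.1%) and cytochrome P450 genes for 15 of 72 (20.8%). The F subfamily had 3 of 3 genes detected and the E subfamily its 1 gene, whereas the A subfamily had 8 of 14, B 5 of 8, C 5 of 10, D 2 of 3 and G 2 of 6. The tissue label was checked by markers of cochlear cells, of which 10 of 10 measured fibrocyte genes, 11 of 11 of supporting cells and 8 of 12 of hair cells were detected, with Atoh1 and Pou4f3 of the last list on no array above background. In bulk tissue, fewer cells of a type and less RNA per cell cannot be told apart.

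**Figure D1:**
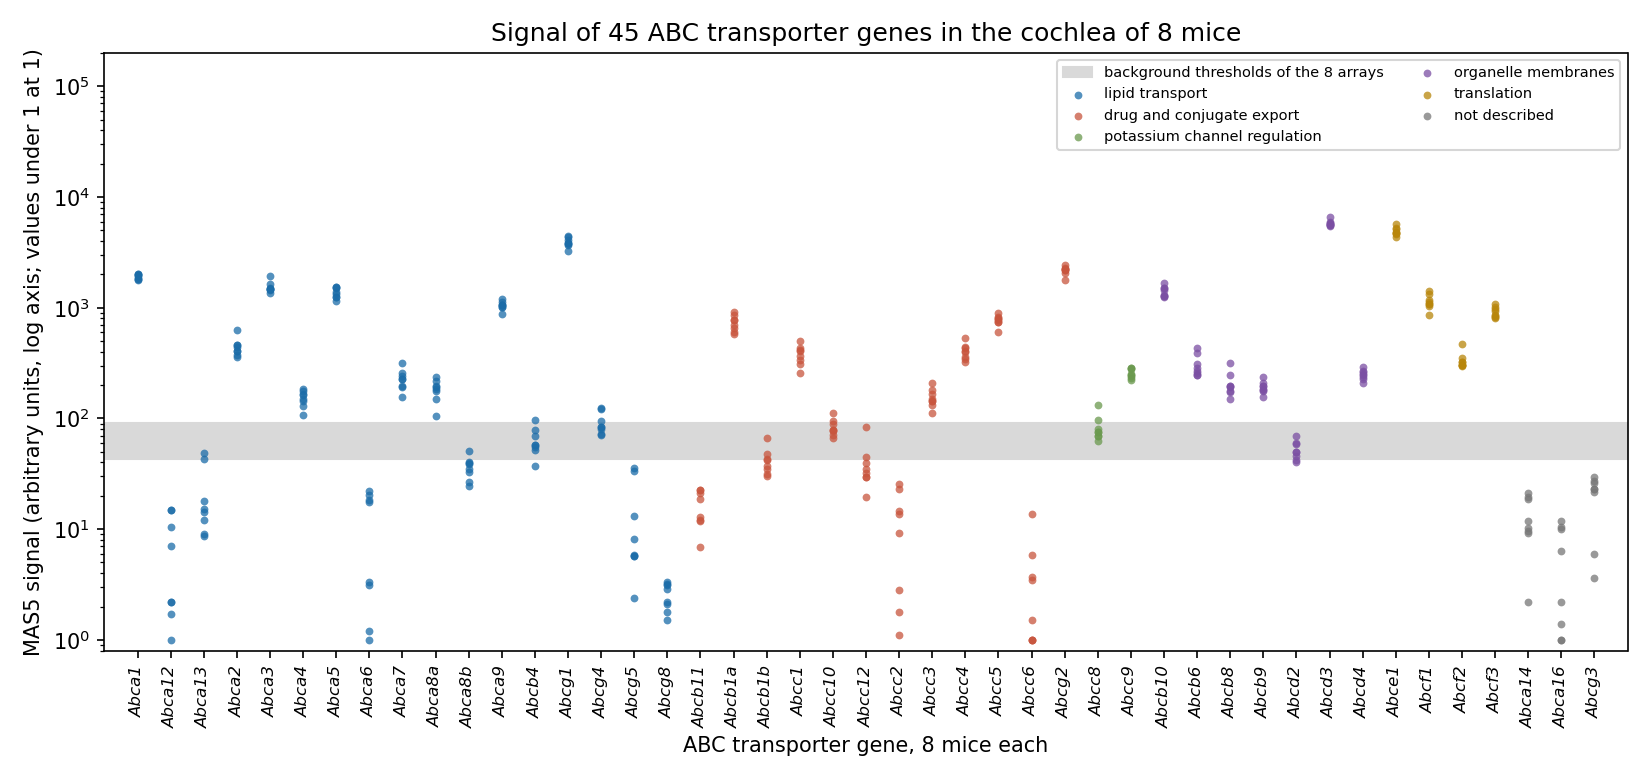
MAS5 signal (arbitrary units, log axis) of the 45 ABC transporter genes, with 1 point for each of the 8 mice and the genes grouped by known role along the horizontal axis. The grey band spans the background thresholds of the 8 arrays, 43.3 to 90.4: the 26 detected genes lie above it, and the 12 genes never above background lie in its lower part or beneath it.

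Among the 17 genes of lipid transport, 9 were detected, 2 exceeded background on some arrays only and 6 on none. Abca1 and Abcg1 move cellular cholesterol outward, Abca1 onto lipid-poor apolipoprotein A-I and Abcg1 onto high-density lipoprotein particles. Abcg1 had 3258 in mouse 1 as the lowest, 3847 as the median and 4474 in mouse 8 as the highest of the 8 signals (mean 3905 ± 383, SD, n = 8). The extremes were 1.37-fold apart, and the lowest mouse was the one in which most other members were highest. Abca1 had 1763 in mouse 7 as the lowest, 1936 as the median and 2029 in mouse 3 as the highest of the 8 signals (mean 1914 ± 100.4, SD, n = 8), and it varied least of the 26 detected members, with an SD of 0.08 on the log2 scale. A further probe set of Abca1 was above background on 6 arrays only, with a signal of 78.2 ± 11.8 (SD, n = 8).

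The promoter of Abca1 is shown because it alone among the 35 ABC genes matched in the promoter table held TGACC followed by TAACC with 5 bases between them, searched on both strands and found in 8 of 14453 promoters of measured genes (0.0554%). These letters were taken from the known element that liver X receptor and retinoid X receptor bind at ABCA1, so the match is a description of this window only. The sequence is RefSeq's, of 250 bases before to 50 after the annotated start, on GRCm38.p6 at chr4:53159846-53160145 on the minus strand. Capitals mark that motif and GGGCGG, the GC box, searched on both strands.
Abca1: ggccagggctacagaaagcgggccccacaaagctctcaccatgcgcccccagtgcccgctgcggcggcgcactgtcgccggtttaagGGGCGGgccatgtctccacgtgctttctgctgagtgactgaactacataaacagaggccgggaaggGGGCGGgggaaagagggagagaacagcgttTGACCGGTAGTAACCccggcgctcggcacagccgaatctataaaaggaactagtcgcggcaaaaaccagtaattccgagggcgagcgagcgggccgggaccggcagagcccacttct

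Liver X receptor alpha (Nr1h3), a nuclear receptor that senses oxysterols, was detected with a signal of 216 ± 19.3 (SD, n = 8). Of 17 measured genes in a list of partners of lipid efflux, 16 were detected, among them the apolipoprotein D gene Apod (15699 ± 1638), the lysosomal cholesterol carrier Npc2 (8453 ± 749), Apoe (5285 ± 1197) and the phospholipid transfer protein Pltp (4531 ± 294). Apoa1, the protein acceptor of Abca1, exceeded background on 4 of 8 arrays, with 65.4 ± 17.2. The median SD of the detected genes of this list was 0.14 on the log2 scale, against 0.18 for all detected genes.

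The other detected A-subfamily genes are known for lipids of specialised membranes. Abca2, an endolysosomal protein abundant in myelinating glia, had 361 in mouse 4 as the lowest, 424 as the median and 627 in mouse 1 as the highest of the 8 signals (mean 442 ± 83.6, SD, n = 8). Mouse 1 stood above the other 7 mice for this gene, which ranged from 361 to 464. Abca3 loads phospholipid into the lamellar bodies of lung alveolar cells, and its signals ran from 1345 (mouse 8) to 1949 (mouse 1), with a median of 1482 and a mean of 1536 ± 184 (SD, n = 8). Abca4 is the retinoid-lipid flippase of photoreceptor discs. It ran from 108 (mouse 8) to 185 (mouse 1), with a median of 157 and a mean of 153 ± 25.4 (SD, n = 8). Abca7, which takes part in phospholipid export and phagocytosis, ran from 157 (mouse 8) to 316 (mouse 1), with a median of 227 and a mean of 227 ± 48.0 (SD, n = 8). By the brightest probe sets, mouse 8 was the lowest and mouse 1 the highest for Abca3, Abca4 and Abca7 alike. The second detected probe set of Abca3 was lowest in mouse 3 (92.3, mouse 8 95.1).

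Abca5, Abca6, Abca8a, Abca8b and Abca9 form a cluster on chromosome 11, in the order Abca8b, Abca8a, Abca9, Abca6 and Abca5 in RefSeq's GRCm38.p6 annotation. Neighbours in it fell on opposite sides of background: Abca8a, Abca9 and Abca5 were detected, whereas Abca8b (36.1 ± 8.42) and Abca6 (10.8 ± 9.46) exceeded background on no array (SD, n = 8). Abca5, a lysosomal protein, ran from 1159 (mouse 3) to 1553 (mouse 8), with a median of 1358 and a mean of 1373 ± 153 (SD, n = 8). Abca9 ran from 887 (mouse 8) to 1193 (mouse 1), with a median of 1065 and a mean of 1053 ± 89.5 (SD, n = 8), and its further probe set read 16.2 ± 6.46, on no array above background. Abca8a had 105 in mouse 1 as the lowest, 189 as the median and 236 in mouse 5 as the highest of the 8 signals (mean 183 ± 40.4, SD, n = 8). It varied most of the 26 detected members, with an SD of 0.36 and 2.24-fold between the extremes. Mouse 1 was its lowest mouse, opposite to most members.

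Of the lipid transporters on some arrays only, Abcb4, which carries phosphatidylcholine into bile, exceeded background on 6 arrays and ran from 37.3 (mouse 2) to 96.2 (mouse 5), with a median of 57.4 and a mean of 62.8 ± 18.0 (SD, n = 8). Abcg4, a sterol transporter of neurons and glia related to Abcg1, exceeded it on 6 arrays and ran from 71 (mouse 5) to 124 (mouse 4), with a median of 84.0 and a mean of 91.4 ± 20.7 (SD, n = 8). Because the thresholds themselves ranged from 43.3 to 90.4, these counts do not show a difference between mice.

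Abcg5 and Abcg8 together form the sterol pump of liver and intestine. Abcg5 measured 13.7 ± 13.2 and Abcg8 2.51 ± 0.696, both above background on no array (SD, n = 8). They are neighbours on chromosome 17 on opposite strands, and their 300-base promoter windows share 209 bases, so the window of Abcg5 is shown for both. On GRCm38.p6 it lies at chr17:84682962-84683261 on the minus strand, and it holds no GC box, hence no capitals.
Abcg5: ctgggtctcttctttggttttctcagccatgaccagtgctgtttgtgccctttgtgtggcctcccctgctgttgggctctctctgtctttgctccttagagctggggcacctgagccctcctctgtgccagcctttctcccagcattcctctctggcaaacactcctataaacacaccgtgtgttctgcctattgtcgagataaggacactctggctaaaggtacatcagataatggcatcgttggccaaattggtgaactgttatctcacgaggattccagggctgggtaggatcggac
Abca12, which loads lipid into the lamellar granules of keratinocytes, measured 6.81 ± 6.01 and Abca13, a very large protein of the same subfamily, 21.1 ± 15.6. Neither exceeded background on any array.

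Among the 12 genes of drug and conjugate export, 6 were detected, 3 exceeded background on some arrays only and 3 on none. P-glycoprotein, the pump that keeps many drugs out of brain and inner ear, is encoded in mice by the neighbouring genes Abcb1a and Abcb1b on chromosome 5. Abcb1a had 584 in mouse 8 as the lowest, 731 as the median and 915 in mouse 1 as the highest of the 8 signals (mean 733 ± 119.7, SD, n = 8). The spread of 1.57-fold between the extremes corresponded to an SD of 0.24, at the 70.6th percentile of all detected genes. Abcb1b exceeded background on 1 array, ran from 30.2 (mouse 7) to 67 (mouse 6), with a median of 39.9 and a mean of 41.7 ± 11.8 (SD, n = 8), and its highest value still lay within the range of the thresholds.

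The promoters of this pair are shown because the genes are close copies of which Abcb1a alone was detected. Whether their probes read each other's transcript was not tested. RefSeq places the window of Abcb1a at chr5:8566841-8567140 on the plus strand and that of Abcb1b at chr5:8797897-8798196 on the plus strand, on GRCm38.p6. Capitals mark the GC box GGGCGG on either strand, absent from the window of Abcb1a and present in that of Abcb1b.
Abcb1a: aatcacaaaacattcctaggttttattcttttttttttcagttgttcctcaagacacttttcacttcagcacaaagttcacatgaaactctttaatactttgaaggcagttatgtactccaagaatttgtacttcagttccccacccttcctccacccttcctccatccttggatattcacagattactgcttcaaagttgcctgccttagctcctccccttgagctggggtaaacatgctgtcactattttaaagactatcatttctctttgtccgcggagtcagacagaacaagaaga
Abcb1b: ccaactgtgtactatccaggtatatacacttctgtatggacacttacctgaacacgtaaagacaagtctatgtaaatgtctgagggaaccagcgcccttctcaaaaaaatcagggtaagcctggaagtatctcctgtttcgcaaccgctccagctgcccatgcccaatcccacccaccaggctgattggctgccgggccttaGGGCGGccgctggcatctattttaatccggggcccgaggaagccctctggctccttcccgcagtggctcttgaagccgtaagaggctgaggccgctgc
The window of Abcb1a was 40.3% G and C, the lowest of the 21 detected members with a window, and that of Abcb1b was 55%.

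Abcg2, the breast cancer resistance protein, exports urate and many drugs. It had 1792 in mouse 2 as the lowest, 2217 as the median and 2409.9 in mouse 1 as the highest of the 8 signals (mean 2171 ± 183, SD, n = 8), with an SD of 0.13. The 5 detected C-subfamily genes include 4 multidrug resistance-associated proteins, which export glutathione, glucuronide and nucleotide conjugates. Abcc1, the exporter of leukotriene C4 and glutathione conjugates, had 255 in mouse 8 as the lowest, 385 as the median and 504 in mouse 5 as the highest of the 8 signals (mean 378 ± 77.7, SD, n = 8). Its further probe set was above background on 5 arrays, at 66.9 ± 18.3. Abcc3, known from the basolateral membrane of liver and gut cells, ran from 112 (mouse 8) to 209 (mouse 1), with a median of 146 and a mean of 154 ± 30.1 (SD, n = 8). Abcc4, an exporter of cyclic nucleotides and prostaglandins, ran from 325 (mouse 8) to 538 (mouse 5), with a median of 406 and a mean of 406 ± 68.2 (SD, n = 8). By the brightest probe sets, mouse 8 was lowest for Abcc1, Abcc3, Abcc4 and Abcb1a. The second detected probe set of Abcb1a was lowest in mouse 6 (298.5, mouse 8 347.3).

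Abcc5 exports cyclic GMP and nucleotide analogues. It had 10 probe sets, the most of any member, of which 6 were detected. The brightest had 599.8 in mouse 3 as the lowest, 781 as the median and 899.9 in mouse 1 as the highest of the 8 signals (mean 774 ± 85.7, SD, n = 8). Mouse 3 stood below the other 7 mice, which ranged from 746 to 899.9. Not all 6 detected probe sets were lowest in mouse 3. A probe set reading 216 ± 41.6 was lowest in mouse 8 (164, mouse 3 217). Another, reading 186 ± 21.2, was lowest in mouse 8 as well (153, mouse 3 163). The remaining detected ones were lowest in mouse 3.

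Abcc10, an exporter of amphipathic drugs, exceeded background on 7 arrays and ran from 65.9 (mouse 4) to 113 (mouse 5), with a median of 78.7 and a mean of 83.8 ± 15.1 (SD, n = 8). Abcc12, a poorly characterised relative of Abcc5, exceeded it on 1 array and ran from 19.7 (mouse 7) to 83.1 (mouse 4), with a median of 33.6 and a mean of 39.1 ± 19.2 (SD, n = 8). The transporters of the bile canaliculus were on no array above background, with 16.1 ± 5.86 for the bile salt export pump Abcb11 and 11.5 ± 9.47 for the conjugate pump Abcc2. Abcc6, a liver protein mutated in human pseudoxanthoma elasticum, measured 3.75 ± 4.40 and was on no array above background.

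Regulators of these pumps were measured as a list of 10 genes, of which 5 were detected. The xenobiotic receptors Nr1i2 (PXR, 5.28 ± 5.08) and Nr1i3 (CAR, 9.79 ± 5.79) exceeded background on no array, and neither did Hnf4a (6.49 ± 5.59). The glucocorticoid receptor Nr3c1 (2792 ± 122), the oxidative stress factor Nfe2l2 (1436 ± 114), its inhibitor Keap1 (1265 ± 139) and the aryl hydrocarbon receptor partner Arnt (1405 ± 249.6) were detected with Ahr (745 ± 61.0). Ppara exceeded background on 7 arrays, at 80.6 ± 9.48, and Pparg on 2, at 59.7 ± 48.7. Of 7 measured genes in a list of glutathione metabolism, which supplies a substrate of Abcc1, 5 were detected. They were Gsr (3944 ± 391), Gclm (722 ± 32.4), Gclc (405 ± 53.0), Gss (236 ± 24.3) and Chac1 (123 ± 20.4, a glutathione-degrading enzyme). Slc7a11 (139.5 ± 38.6) exceeded background on 7 arrays and Ggt5 (21.8 ± 9.43) on none.

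The sulfonylurea receptors Abcc9 and Abcc8 regulate ATP-sensitive potassium channels. Abcc9, the receptor of vascular smooth muscle, pericytes and heart, had 224 in mouse 4 as the lowest, 249 as the median and 286 in mouse 6 as the highest of the 8 signals (mean 256 ± 24.2, SD, n = 8). The pore subunit Kcnj8 that pairs with it was detected too, at 268 ± 34.2. Abcc8, the receptor of pancreatic beta cells and neurons, exceeded background on 6 arrays and ran from 62.8 (mouse 6) to 132 (mouse 4), with a median of 75.7 and a mean of 82.8 ± 22.4 (SD, n = 8). Its usual partner Kcnj11 also exceeded background on 6 arrays, at 60.5 ± 7.01.

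Of 7 genes of organelle membranes, 6 were detected and 1 exceeded background on some arrays only. Abcd3, a major protein of the peroxisome membrane that imports fatty acids, had 5476 in mouse 2 as the lowest, 5706 as the median and 6570 in mouse 1 as the highest of the 8 signals (mean 5797 ± 342, SD, n = 8). Mouse 1 stood above the other 7, which ranged from 5476 to 5913, and a further probe set of Abcd3 read 13.7 ± 7.84, on no array above background. Abcd2, an importer of very long-chain fatty acids into peroxisomes, exceeded background on 4 arrays and ran from 40 (mouse 3) to 69.6 (mouse 5), with a median of 49.6 and a mean of 52.0 ± 10.1 (SD, n = 8). Abcd4, which takes part in the release of vitamin B12 from lysosomes, ran from 209.9 (mouse 3) to 294 (mouse 1), with a median of 251 and a mean of 249 ± 25.9 (SD, n = 8). Of 13 measured genes of peroxisomal fatty acid oxidation, 10 were detected, with Scp2 (5137 ± 709.5), Hsd17b4 (1496 ± 223), Acaa1a (932 ± 147) and the peroxisome biogenesis factor Pex3 (582 ± 109) among them. Acox2 (38.4 ± 15.6), Acox3 (47.5 ± 11.98) and Acaa1b (64.4 ± 43.1) were not detected.

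Abcb6, Abcb8 and Abcb10 serve mitochondria and porphyrin traffic. Abcb6, a porphyrin transporter, had 245 in mouse 6 as the lowest, 274 as the median and 435 in mouse 1 as the highest of the 8 signals (mean 303 ± 70.7, SD, n = 8). Abcb8, of the inner mitochondrial membrane, had 149 in mouse 8 as the lowest, 194 as the median and 317 in mouse 1 as the highest of the 8 signals (mean 206 ± 52.7, SD, n = 8). Its values were 2.13-fold apart at the extremes, and a further probe set was above background on 3 arrays, at 46.9 ± 8.07. Abcb10, an inner membrane protein needed for heme synthesis in red cell precursors, ran from 1250.1 (mouse 7) to 1676 (mouse 5), with a median of 1377 and a mean of 1405 ± 152 (SD, n = 8), and its further probe set was above background on 5 arrays, at 59.3 ± 18.1. Abcb9, a lysosomal peptide transporter, ran from 158 (mouse 6) to 235 (mouse 1), with a median of 189.6 and a mean of 192 ± 23.4 (SD, n = 8), and its further probe set was above background on 7 arrays, at 92.0 ± 10.1. Of 14 measured genes of heme and iron-sulfur synthesis 13 were detected, with Iscu (5865 ± 686), Lyrm4 (3419.7 ± 206), Alad (3394 ± 491) and Fech (3309 ± 243) among them. Alas2, the red cell form of the first enzyme of heme synthesis, exceeded background on 7 arrays, at 240.4 ± 179.

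Relatives of Abcb9 that go by other symbols are the peptide transporters of antigen presentation. Tap1 (127 ± 55.0) and Tap2 (246 ± 68.8) were both detected, as were 9 of 9 measured peptide loading partners, among them B2m (12503 ± 1153), Calr (7153 ± 1666), Canx (7072 ± 331) and Tapbp (7045 ± 943). Cftr, the chloride channel of the C subfamily, exceeded background on no array, at 12.2 ± 10.4.

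The 4 genes that act at the ribosome were all detected. Abce1 splits ribosomes for recycling after termination. It had 4354 in mouse 1 as the lowest, 4821 as the median and 5729 in mouse 8 as the highest of the 8 signals (mean 4935 ± 434, SD, n = 8), so that mouse 1 was lowest by this probe set. Abcf1, which promotes translation initiation, had 867 in mouse 6 as the lowest, 1098 as the median and 1421 in mouse 1 as the highest of the 8 signals (mean 1140.2 ± 175, SD, n = 8). Abcf2 had 297 in mouse 5 as the lowest, 314 as the median and 467 in mouse 1 as the highest of the 8 signals (mean 335 ± 56.4, SD, n = 8), and its further probe set was above background on 7 arrays, at 75.3 ± 16.3. Mouse 1 stood above the other 7 mice for Abcf2, which ranged from 297 to 354. Abcf3 ran from 811 (mouse 6) to 1081 (mouse 1), with a median of 893 and a mean of 915 ± 98.1 (SD, n = 8). All 5 measured genes in a list of ribosome recycling and the stress kinase Gcn2 were detected. They were Etf1 (2212 ± 135), Hbs1l (1030.3 ± 159.8), Gcn1 (652 ± 95.1), the Gcn2 gene Eif2ak4 (495 ± 67.9) and Pelo (214 ± 29.7).

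Abcg3 (20.0 ± 9.76), Abca14 (12.9 ± 6.53) and Abca16 (5.45 ± 4.79) were each above background on no array (SD, n = 8). No role is given for these genes. In the annotation Abca14 and Abca16 lie near each other on chromosome 7.

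Between mice the detected ABC genes varied by a median close to that of all detected genes. The SD of the log2 signal had a median of 0.17 over the 26 members, with a range of 0.08 (Abca1) to 0.36 (Abca8a), beside a median of 0.18 over all detected genes. An SD over 0.5 was reached by 0 of the 26 members, against 2.78% of all detected genes. The ratio of the highest to the lowest mouse had a median of 1.50 over the members and 1.45 over all detected genes. It exceeded 2 in 3 members, Abca8a (2.24), Abcb8 (2.13) and Abca7 (2.02), against 10.6% of all detected genes. The 10 largest SDs belonged to Abca8a, Abcb8 (0.34), Abcb6 (0.31), Abcc1 (0.31), Abca7 (0.30), Abcc3 (0.28), Abca4 (0.25), Abca2 (0.25), Abcb1a (0.24) and Abcc4 (0.23). Of these 10, Abcb1a alone had a second detected probe set. By role, the median SD was 0.16 for lipid transport, 0.23 for drug and conjugate export, 0.16 for organelle membranes and 0.18 for translation. No test was made of these medians, and the spread includes that of the assay.

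**Figure D2:**
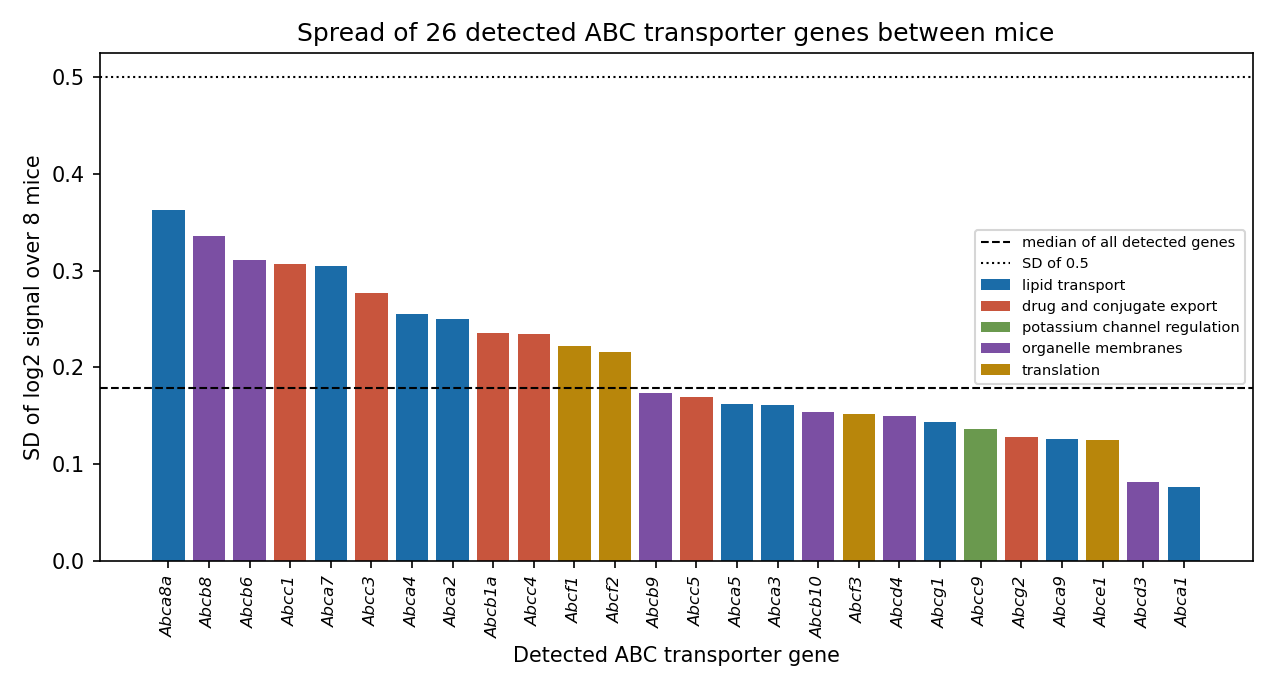
SD of the log2 signal over the 8 mice for the 26 detected ABC transporter genes, as bars coloured by known role and sorted by size. The dashed line is the median of all detected genes (0.18) and the dotted line an SD of 0.5. All 26 bars stay below 0.5, from 0.36 for Abca8a to 0.08 for Abca1.

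Many of the members were highest in the same animal. Mouse 1 held the highest signal of 17 of the 26 detected members (65.4%), against 34.1% of all detected genes. Mouse 8 held the lowest signal of 9 members (34.6%), against 19.2% of all detected genes. The median deviation from a gene's mean in mouse 1 was 0.24 on the log2 scale over the members and 0.05 over all detected genes. Organelle genes were highest in mouse 1 in 5 of 6 cases, translation genes in 3 of 4, lipid transporters in 5 of 9 and drug exporters in 4 of 6. Abca8a, Abce1 and Abcg1, 3 of the 26 (11.5%), were lowest in mouse 1, as were 24.1% of all detected genes. All counts use a gene's brightest probe set. The second detected one was also highest in mouse 1 for Abca3, Abcb1a and Abcd4. It was highest in another mouse for Abcc5 (391.1, mouse 1 390.6), Abcf1 (841, mouse 1 837) and Abcf3 (368, mouse 1 304). For Abce1 (lowest 3215, mouse 1 3821.5) and Abcg1 (lowest 189, mouse 1 217) it was not lowest in mouse 1. Further probe sets of Abce1 (85.6) and Abcf3 (156) were lowest in mouse 1. Abca3 and Abcb1a, counted as lowest in mouse 8, were lowest in mice 3 and 6 by their second detected probe sets. The mean of all pairwise correlations across mice was 0.186 over the members and 0.0185 over all detected genes. Without mouse 1 it was 0.0868 over the members, with the arrays scaled to the same median of detected genes 0.101, and with the mean of all probe sets of a gene 0.0633. No value over all detected genes was computed under these alternatives, so they allow no comparison with the whole array. These counts describe 8 arrays and carry no test.

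**Figure D3:**
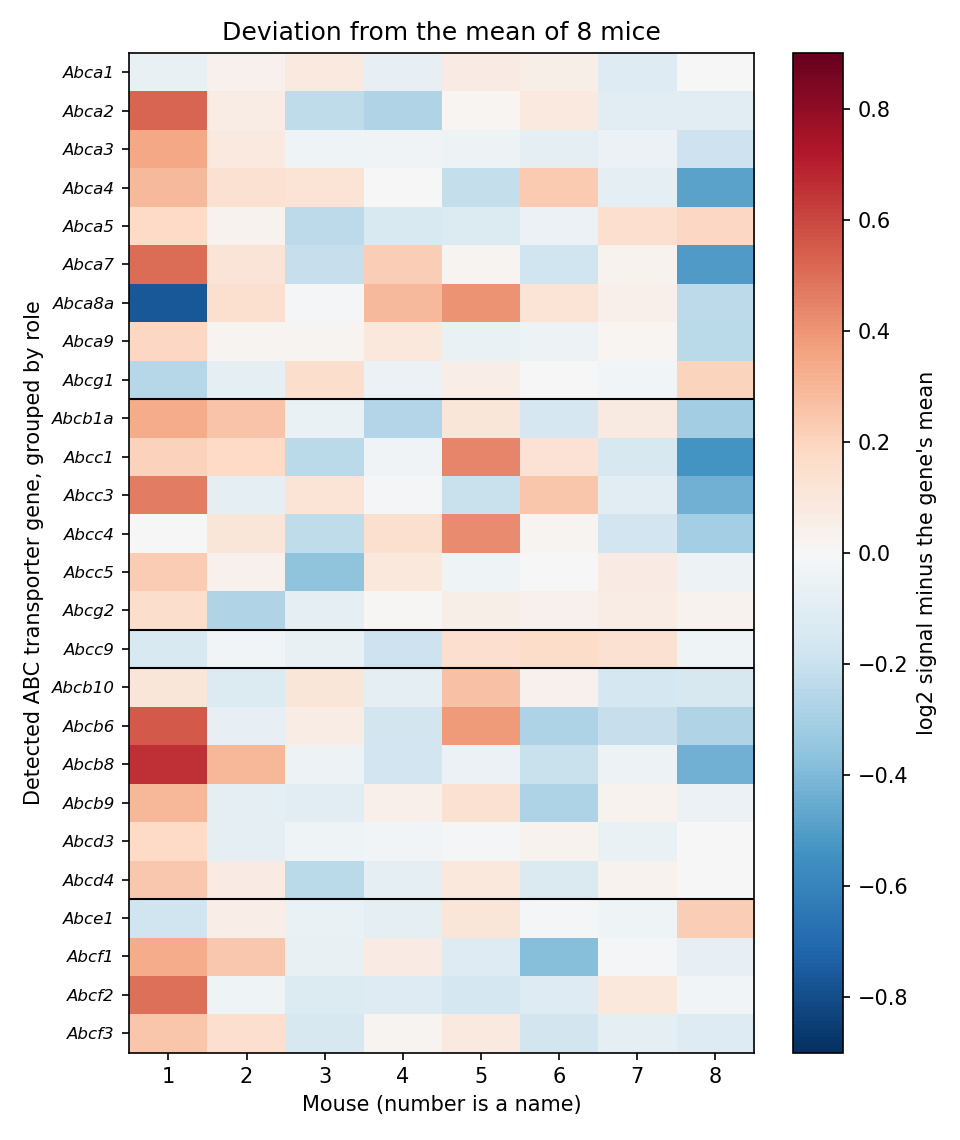
Deviation of the log2 signal from the gene's mean over the 8 mice, red for higher and blue for lower, for the 26 detected ABC transporter genes (down the page, grouped by role with black lines between groups) in mice 1 to 8 (across). Each gene is read by its brightest probe set. The column of mouse 1 is mostly red, with 17 genes at their highest, and Abca8a, Abce1 and Abcg1 are at their lowest there. In mouse 8, 9 genes are at their lowest.

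Other measures also differed in mouse 1, and their part in this pattern was not tested. Its median signal over all probe sets was 76.8, against 82.1 to 90 on the other arrays. The ratio of 3′ to 5′ signal of the Gapdh control was 1.54 in mouse 1, next to 1.52 in mouse 5, in a range that began at 1.39, whereas that of beta-actin was 2.03, within a range of 1.86 to 2.23. The summed signal of the neuron list, with 12 of 14 measured markers detected, was 39199 in mouse 1 as the highest and 15193 in mouse 6 as the lowest. The marginal cell list of the stria vascularis, with 8 of 8 detected, summed to 40929 in mouse 1 as the highest and 31381 in mouse 7 as the lowest. The endothelial list, with 12 of 14 detected, ranged from 16649 in mouse 3 to 19211 in mouse 1. The bone list, with 9 of 10 detected, was lowest in mouse 1 at 5790 and highest in mouse 6 at 12503. None of these 4 lists had a marker that stayed below background on all arrays. Mouse 1 also had the highest sums of the Schwann cell list (45086, lowest 34915, 9 of 10 detected), the melanocyte list (44608, lowest 37648, 10 of 13 detected, Tyrp1 and Pmel on no array) and the fibrocyte list (90956, lowest 74580, 10 of 10 detected), and the lowest of the pericyte list (7097, highest 8105, 7 of 9 detected). By score, the mean deviation on the log2 scale, mouse 1 was likewise highest for the neuron, marginal cell, endothelial, Schwann cell and melanocyte lists. The bone score, however, was lowest in mouse 8 (-0.602, mouse 1 -0.458) and the pericyte score in mouse 2 (-0.0739, mouse 1 -0.0401). The fibrocyte score was highest in mouse 3 (0.0678, mouse 1 0.0673). For the other scored lists, too, mouse 1 was not the extreme by score. Mouse 1 scored 1.69 for CNS glia (3 of 8 detected, with Olig2, Opalin and Hapln2 on no array), below 1.80 in mouse 6. Its neutrophil score was -0.99, above -2.53 in mouse 7. Its proliferation score was -0.86, above -1.30 in mouse 7 (4 of 12 detected, with Aurkb on no array). It scored -0.00729 for macrophages (range -0.203 to 0.249) and 0.0291 for supporting cells (-0.0634 to 0.128). For hair cells it scored -0.127 (-0.288 to 0.217) and for adipocytes -0.675 (-0.820 to 2.25).

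Mouse 5 held the highest signal of 4 detected members (15.4%), Abca8a, Abcb10, Abcc1 and Abcc4, against 8.46% of all detected genes. Lists of other tissues were highest there too. The skeletal muscle list (2 of 10 detected, Ckm on no array) summed to 9634 in mouse 5 and to 321 in the lowest mouse. The airway epithelium list (1 of 9 detected, with Bpifb1, Scgb1a1 and Dnah5 on no array) summed to 22241 in mouse 5 and to 1323 in the lowest. The adipocyte list (3 of 8 detected, with Lep and Retn on no array) summed to 9823 in mouse 5 and to 809.6 in the lowest. The part of these tissues in the members' signals was not tested.

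Whether a gene's course over the mice was seen by more than 1 probe set was tested by the exact permutation test of the correlation of its brightest 2 detected probe sets, two-sided and adjusted over the 4357 genes that have them. Of 10 members with such a pair, 1 passed, against 4.68% of all genes tested. This was Abcc5, with r = 0.927 (rho = 0.905, exact permutation p = 0.000645, adjusted p = 0.0309, n = 8). Without mice 1 and 3, the farthest from the median, its r was 0.818. The call was lost after quantile normalization (adjusted exact p = 0.0631), after scaling to the same median (0.0558) and by Spearman's rho (0.105). With 7 mice the test called no gene of the whole array, so leaving out a mouse tests nothing here.

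The probe sets of Abcb1a had r = 0.680 (rho = 0.738, adjusted exact p = 0.217, n = 8), and both were highest in mouse 1. Those of Abcg1 had r = 0.491 (rho = 0.524, adjusted exact p = 0.459, n = 8), and both were highest in mouse 8. Abca3 had r = 0.815, which was 0.0386 without mice 1 and 8 (adjusted exact p = 0.150 over all mice, n = 8). For Abcc9 r was 0.792 (adjusted exact p = 0.107) and for Abcf1 0.637 (adjusted exact p = 0.292). For Abcd4 it was 0.150, for Abce1 0.0452, for Abca5 -0.246 and for Abcf3 -0.326, with adjusted exact p-values of 0.662 to 0.959. Single mice set several of these values. Without mouse 1, r was 0.473 for Abcb1a, 0.390 for Abca3, -0.486 for Abcd4, -0.0800 for Abca5 and 0.0465 for Abcf3. Without mouse 8 it was 0.210 for Abcg1, -0.926 for Abce1 and -0.0374 for Abca5. Without mouse 3 it was -0.671 for Abca5, without mouse 6 -0.771 for Abcf3, and without mouse 5 0.351 for Abce1. In 8 further members the second probe set was not above background on all arrays, so that a single probe set carried the gene's values. A single probe set also carried Abca2, Abca4, Abca7, Abca8a, Abcb6, Abcc3, Abcc4 and Abcg2, which had only 1 each.

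**Figure D4:**
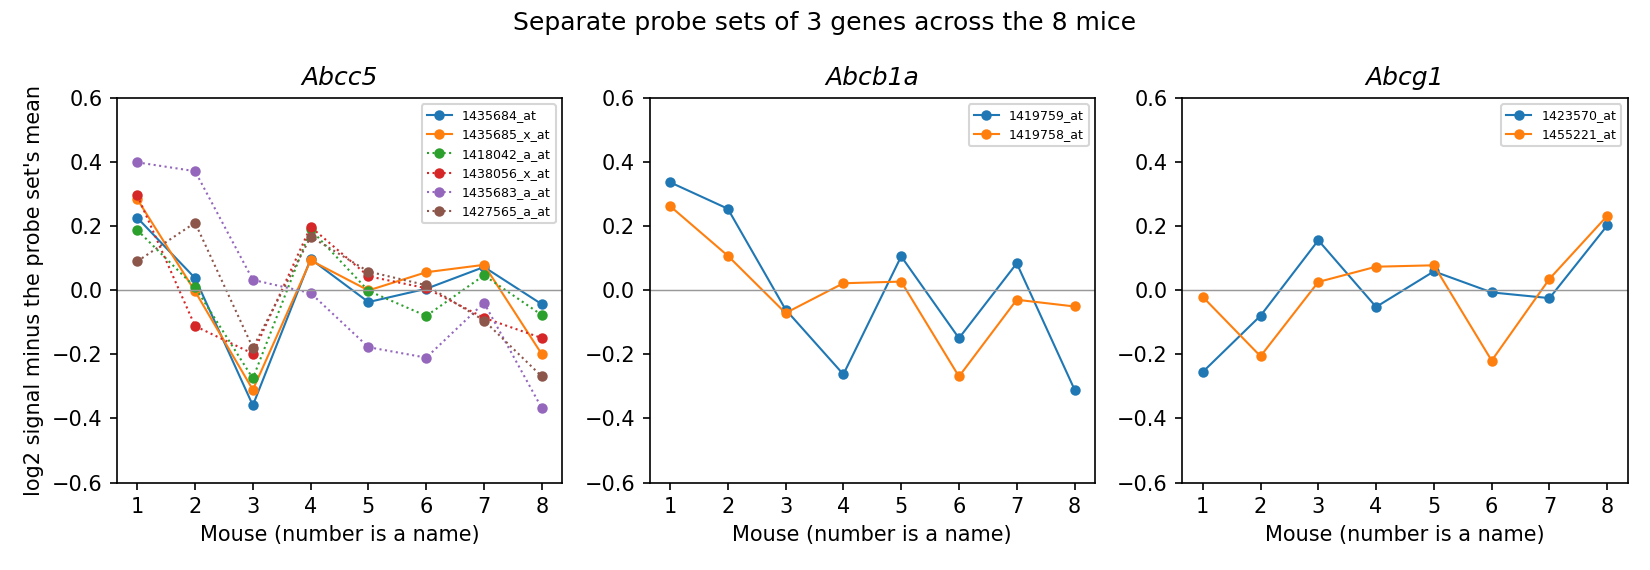
Log2 signal minus the probe set's own mean in mice 1 to 8, with 1 line for each detected probe set of Abcc5, Abcb1a and Abcg1; lines join values of 1 probe set and show no order of the mice. For Abcc5 the line of the brightest probe set is lowest in mouse 3. Both lines of Abcb1a are at their highest in mouse 1 and both of Abcg1 in mouse 8.

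The members were set against 18 measures per array, the scores of 15 marker lists and 3 array measures, by the exact permutation test adjusted over 203220 relations of all detected genes. Of 468 relations of members 0 were called (smallest adjusted exact p = 0.611, n = 8), as for 0% of all relations, and 32 (6.84%) had an unadjusted p under 0.05, against 6.29% of all. With limma 0 relations of members passed as well (smallest adjusted p = 0.461), of 74 called over the whole array. In simulated data the exact test recovered 0 of 100 genes even at a correlation of 0.99, so a count of 0 says nothing about the members. The smallest p among the members was that of Abca1 and the neutrophil score, with r = 0.905 (rho = 0.929, exact permutation p = 0.000818 for r and 0.00223 for rho, n = 8), and 0.861 without mice 1 and 7. The neutrophil list, with 6 of 12 measured markers detected and none on no array, summed to 2078 in mouse 7 as the lowest and 30263 in mouse 3 as the highest, and its part in the level of Abca1 was not tested. The 6 relations that follow were picked from known sites of expression, with their values known, and were not called either. Abca1 and the macrophage score had r = 0.814 (rho = 0.857, exact permutation p = 0.0219 for r and 0.0107 for rho, adjusted p = 0.765, n = 8), and r was 0.660 without mice 3 and 5. Abcc9 and the pericyte score had r = 0.737 (rho = 0.571, exact permutation p = 0.0550 for r and 0.151 for rho, adjusted p = 0.799, n = 8), and 0.768 without mice 2 and 5. Abcb1a and the endothelial score had r = 0.486 (rho = 0.571, exact permutation p = 0.229 for r and 0.151 for rho, adjusted p = 0.856, n = 8), and 0.395 without mice 3 and 8. Abcg1 and the macrophage score had r = 0.112 (rho = 0.167, exact permutation p = 0.794 for r and 0.703 for rho, adjusted p = 0.979, n = 8), and -0.351 without mice 3 and 5. Abca7 and the macrophage score had r = -0.0459 (rho = -0.143, exact permutation p = 0.913 for r and 0.752 for rho, adjusted p = 0.991, n = 8), and 0.115 without mice 3 and 5. Abcg1 and the endothelial score had r = -0.819 (rho = -0.524, exact permutation p = 0.0167 for r and 0.197 for rho, adjusted p = 0.757, n = 8), and -0.643 without mice 3 and 8.

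The detected genes whose course over the 8 mice was most like that of a member are given by Pearson's r, as a description of 8 arrays that share the platform and the scaling. They were picked as the 5 highest among 11290 detected genes. High values come with this picking, and no chance level was computed. For Abcg1 they were Alg2 (r = 0.975), Med19 (r = 0.965), Bud31 (r = 0.963), Elavl1 (r = 0.962) and Sel1l (r = 0.959). For Abcb1a they were Mrpl32 (r = 0.981), Ppm1m (r = 0.972), Elmod3 (r = 0.972), Spint1 (r = 0.969) and Sat2 (r = 0.967). Abca8a was most like Npy (r = 0.973), Stk26 (r = 0.965), Nkapd1 (r = 0.959), Ano1 (r = 0.951) and Ddo (r = 0.945). The gene most like Abcb8 was Card6, in a group of Card6 (r = 0.995), Exoc4 (r = 0.988), Plbd1 (r = 0.986), Tecpr1 (r = 0.984) and Gdpd5 (r = 0.983). Abcb6 was most like Uqcrfs1 (r = 0.976), M6pr (r = 0.967), Tfb2m (r = 0.965), Mrpl20 (r = 0.960) and Ech1 (r = 0.958). Next to Abcc1 stood Jrk (r = 0.965), Camk1g (r = 0.962), Tmem241 (r = 0.948), Ephx2 (r = 0.944) and Pomgnt2 (r = 0.943), and next to Abca7 Anapc1 (r = 0.987), Fgf18 (r = 0.985), Ikbkg (r = 0.979), Cop1 (r = 0.978) and Dgkz (r = 0.974).

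Promoter windows of 300 bases, from the first start listed in RefSeq's table, were matched for 35 of the 45 members. In the 21 detected members with a window the median share of G and C was 62.7%, and in the 10 with a window that were on no array above background it was 51.8%. Over the whole array the medians were 61.3% for all detected genes and 51.0% for all genes on no array. The GC box GGGCGG, on either strand, was in 12 of the 21 windows (57.1%) and in 2 of the 10 (20%), beside 65.8% and 26.4% over the whole array and 54.0% of all 14453 windows. The windows of Abcb1a and Abca1 printed above are examples from detected members, the first without the box and the second with it. A match is a description of letters, not of a bound site.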

How the data were processed

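Total RNA of cochlear soft tissue of 8 mice was measured on 1 array each, as 1 group with no contrast. Per the labels' protocols, TRIZOL and an RNEasy column were used to prepare RNA, and Ovation amplification gave biotin-labelled cDNA. The deposited values are linear intensities (signals) per probe set, made by the authors with MAS5 per the submitters' processing notes, version not given in the sources used here. Without their lowest and highest 2%, the deposited intensities averaged 500.0 on every array. The file held 0 other sample columns.

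The annotation gave 1 gene for 34958 of 45101 probe sets, several for 932 and none for 9211. Of these 34754 were matched by Entrez identifier to current symbols, and 0 symbols changed. Where a gene had several probe sets the one of highest mean was taken, leaving out those ending in _x_at unless a gene had none besides. Signals under 1 were raised to 1 before taking log2. The background threshold, at the 95th percentile, came from 136 probe sets for 114 genes, 3 of them detected. Log2 signals of any 2 arrays correlated at 0.945 to 0.960 across probe sets, and 0 pairs were identical. Correlations used the exact permutation test over 40320 pairings, two-sided, with Benjamini-Hochberg adjustment over all genes of a family and a threshold of 0.05; limma was the alternative for scores. A score was the mean deviation of a list's detected genes, for lists with at least 3. On simulated data the probe set test recovered 156 of 200 genes at a correlation of 0.95 and called 8 unchanged genes. Limma, like the exact test, recovered 0 of 100 genes with a score correlation of 0.99.

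Every ABC gene is named; those with the 10 largest SDs, an outlying mouse, probe sets on both sides of background or signal above background on some arrays only are given in more detail, and likeness is given for Abcg1, Abcb1a and the 5 largest SDs. Of each pathway list, the names printed are up to 4 detected genes taken by mean signal, a rule for choosing names and no order of RNA amounts, with those not detected. Outside this rule stand Nr1h3, Ahr, Chac1 and Pelo, picked with their values known. The members, lists and tests were chosen with earlier results of these data known. Replicates are separate mice by the labels, and p-values measure the spread between these samples, assay included. No genome build is named by the files; promoters and gene order are RefSeq's on GRCm38.p6. Alternatives were quantile normalization, scaling to the same median, adding 32 before log2, averaging a gene's probe sets, thresholds at the 99th and 90th percentiles or from receptors alone, at least 4 of 8 arrays, Spearman's rho and leaving out each mouse. Tools were R 4.3.3 with limma 3.58.1, and scipy 1.17.1, pandas 2.3.3, numpy 2.4.6 and matplotlib 3.10.9 under Python 3.11.15.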

Additional observations from a re-analysis of the deposited data

Results flagged for a closer look

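In 4 of the 26 detected ABC transporter genes 1 mouse lay far from the other 7, by the gap to its nearest neighbour as a share of the whole range of log2 signals, set against Dixon's critical value. Chance puts about 1 in 20 groups past this value, and 12.8% of all detected genes passed it. Mouse 1 was the far one in 3 of the 4, and how often it was so among all detected genes is not given here. Over all detected genes, mouse 1 was the highest in 34.1% and the lowest in 24.1%. For Abcf2 it had 467, against 297 to 354 in the others, and a gap share of 0.614. For Abcd3, mouse 1 had 6570, against 5476 to 5913, and a gap share of 0.578. For Abca2, mouse 1 had 627, against 361 to 464, and a gap share of 0.545. Abcc5, by its brightest probe set, was lowest in mouse 3 at 599.8, against 746 to 899.9 in the others, with a gap share of 0.539. Not all of its detected probe sets were lowest in that mouse.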

How the results depend on the processing

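The 26 detected members, beside which 62.1% of all genes were detected, became 19 with the threshold at the 99th percentile (48.0% of all genes; without Abca4, Abca7, Abca8a, Abcb8, Abcb9, Abcc3 and Abcd4) and 23 with the mean of all probe sets (53.7%; without Abcb8, Abcb9 and Abcb10). They became 29 at the 90th percentile (67.2%) or with receptors alone (64.8%), both with Abcc8, Abcc10 and Abcg4, 31 with at least 4 of 8 arrays (69.1%), and 26 to 27 when a mouse was left out. The number with an SD over 0.5 was 0, and 1 (Abcd3) with the mean of all probe sets. The number whose probe sets agreed was 1 (Abcc5), and 0 with quantile normalization, scaling to the same median and Spearman's rho, and 0 to 0 without each mouse, where 0 genes of the whole array passed. The mean pairwise r of 0.186 was 0.101 with scaling to the same median, 0.0633 with the mean of all probe sets and 0.0868 to 0.215 without each mouse, lowest without mouse 1. The median SD moved within 1.5 times under 16 alternatives. The count highest in mouse 1 was 17, and 11 at the 99th percentile, where fewer genes were counted. These last 3 measures were chosen after seeing the data. Of 495 mean levels under alternatives, 471 moved by less than the SD between mice and 24 by more, these 24 with log2 of the signal plus 32. No paired analysis was possible because there is 1 group. Low signals near background limit what can be said of the 19 members not detected.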
